A study of Homo sapiens with 8 samples.

Results

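Glypicans and syndecans are the cell surface heparan sulphate proteoglycans, and their 10 human genes, GPC1 to GPC6 and SDC1 to SDC4, were followed by symbol among the 19541 genes of the authors' deposited table. All 6 glypicans and all 4 syndecans were listed there. The cells were HAP1, a near-haploid human line established from a chronic myeloid leukaemia line, and CRISPR-edited HAP1 lines null for SMARCB1, SMARCA4 or both genes. Both genes encode parts of SWI/SNF (BAF), the complexes that remodel chromatin, and SMARCA4 is an ATPase among them. The SMARCB1 null was represented by 2 samples made with guides 1 and 2 and taken at passage 12, and the SMARCA4 null likewise by guides 1 and 2 at passage 12. The double null (guide 1 for SMARCB1 and guide 2 for SMARCA4) was a single line sampled at passages 15 and 18, and wildtype HAP1 was sampled at passages 9 and 12. All groups share the HAP1 background, and no group was treated. Line, guide pair, passage and loss of both genes cannot be told apart in the double null, since it was 1 line and also the latest sampled. The labels call the single-null pairs biological replicates made with different guides, while the wildtype and double-null pairs are passages of a line, so the spread in those groups is that between passages.

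A glypican is a globular protein tied to the outer leaf of the plasma membrane by a lipid (GPI) anchor, with heparan sulphate chains near the membrane, and a syndecan is a transmembrane protein with a short cytoplasmic tail that binds PDZ proteins and the cytoskeleton. Through their sulphated sugar chains both families bind Wnt, Hedgehog, FGF and BMP ligands and extracellular matrix, and so act as co-receptors or as stores of ligand. GPC3 and GPC4 are neighbours on chromosome X and GPC5 and GPC6 on chromosome 13, while the other members lie apart from each other on chromosomes 1, 2, 7, 8 and 20.

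The promoters of 4 members called in the double null are shown because these genes moved in opposite directions there: GPC4 and GPC6 were lower, GPC2 and SDC3 higher. Each run is the 250 bases upstream of the annotated start in RefSeq (build GRCh38.p14), read 5′ to 3′ on the strand of the gene. Capitals mark matches on either strand. The letters searched were GGGCGG for a GC box. For a TATA box they were TATAAA. The third motif was CCAAT.
GPC4 promoter, chrX:133415490-133415739, minus strand: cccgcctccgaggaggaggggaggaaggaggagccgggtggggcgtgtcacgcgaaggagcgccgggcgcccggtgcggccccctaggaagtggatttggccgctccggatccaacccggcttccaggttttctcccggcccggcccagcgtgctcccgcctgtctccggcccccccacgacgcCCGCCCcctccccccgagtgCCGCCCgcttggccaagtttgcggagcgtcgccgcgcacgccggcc
GPC6 promoter, chr13:93226557-93226806, plus strand: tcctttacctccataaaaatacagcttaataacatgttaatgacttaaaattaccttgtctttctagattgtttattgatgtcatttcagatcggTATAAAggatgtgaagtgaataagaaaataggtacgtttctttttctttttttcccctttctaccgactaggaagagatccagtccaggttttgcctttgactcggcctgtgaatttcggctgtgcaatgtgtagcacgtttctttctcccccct
GPC2 promoter, chr7:100177382-100177631, minus strand: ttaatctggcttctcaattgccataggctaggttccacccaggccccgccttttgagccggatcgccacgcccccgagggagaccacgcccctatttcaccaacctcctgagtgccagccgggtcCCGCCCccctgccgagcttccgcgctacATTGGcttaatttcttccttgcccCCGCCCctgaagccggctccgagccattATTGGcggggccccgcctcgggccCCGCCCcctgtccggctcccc
SDC3 promoter, chr1:30908759-30909008, minus strand: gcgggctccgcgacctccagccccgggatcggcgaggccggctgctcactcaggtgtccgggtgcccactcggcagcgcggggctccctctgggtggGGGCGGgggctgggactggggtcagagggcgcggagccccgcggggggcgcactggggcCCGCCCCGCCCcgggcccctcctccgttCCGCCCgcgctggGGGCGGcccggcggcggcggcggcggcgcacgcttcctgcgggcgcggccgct
RefSeq windows matched 8 of the 10 members, and GPC3 and SDC2 are named only. The GPC6 window held 37.6% G and C and 1 TATAAA match, against 62.4% to 84% G and C in the other windows of members and a median of 58% over 35116 promoters. The GPC5 window also held 1 TATAAA match. GC boxes numbered 5 in SDC3, with 1 overlapping another, 3 in GPC2, 2 in GPC4 and none in GPC6. The letters GGGCGG occur in 42.6% of all promoters, TATAAA in 10.7% and CCAAT, which is present 2 times in GPC2, in 32%. TGANTCA (AP-1), GGAATG (TEAD) and CACGTG (E-box), found in 6.57%, 11.9% and 6.34% of all promoters, had no match in any window of a member. These matches describe letters in the windows, and binding was not measured.

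What the authors' deposited table holds is a ratio of each null group to wildtype with a p-value and an adjusted p-value (FDR), and a member was called where that FDR was under 0.05. The level of each gene in each group was solved from its total reads and the 3 ratios, and is given as depth-corrected reads per library, the mean of the group. Such an implied level depends on how reads were shared between the libraries of a group, and it could lie at most 11.2% lower or 14.4% higher for any member. Relative depths came to 70.2 and 67.9 M reads for the SMARCB1-null libraries, 92.3 and 71.5 M for the SMARCA4 null, 103 and 75.7 M for the double null and 81.8 and 68.3 M for wildtype. The spread between libraries is not known for 9 members, and GPC5, for which whole reads per library were recovered, is the exception. Libraries of a group could differ widely in genes of other cell types: the deeper double-null library held 6672 reads of the neuroendocrine gene CHGA and the shallower one 14, and the deeper SMARCB1-null library held 1237 reads of the muscle gene TNNC2 and the shallower one 1. Values of the 9 other members without these libraries could not be computed. Both targets were low in their own nulls: SMARCB1 had ratios of 0.109 in the SMARCB1 null and 0.182 in the double null (and 0.97 in the SMARCA4 null), and SMARCA4 had ratios of 0.0918 in the SMARCA4 null and 0.152 for the double null (and 0.947 in the SMARCB1 null) according to the authors' deposited table.

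Of the 10 members, 7 were called in at least 1 null, and GPC1, SDC1 and GPC5 in none, according to the authors' deposited table. The share of all genes called in at least 1 null was not computed, so that count has no background here. Shares given with each null are for that comparison alone. In the SMARCB1 null 3 members were called, all lower (GPC3, GPC4 and SDC2), where 13.6% of all genes were called, 5.76% lower and 7.86% higher. Likewise 3 members were called in the SMARCA4 null, all higher (GPC3, SDC2 and SDC4), where 11.9% of all genes were called, 7.39% higher and 4.49% lower. The double null had 6 called members, 4 lower (GPC3, GPC4, GPC6 and SDC2) and 2 higher (GPC2 and SDC3), where 18% of all genes were called, 5.97% lower and 12% higher. The median log2 ratio over the members was -0.22 for the SMARCB1 null, 0.11 for the SMARCA4 null and 0.04 for the double null, against 0.06, 0.03 and 0.17 over all genes. Called members went 1 way in each single null and both ways in the double null. The 3 comparisons share the wildtype samples. In bulk RNA, fewer cells of a type and less RNA per cell cannot be told apart.

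**Figure D1:**
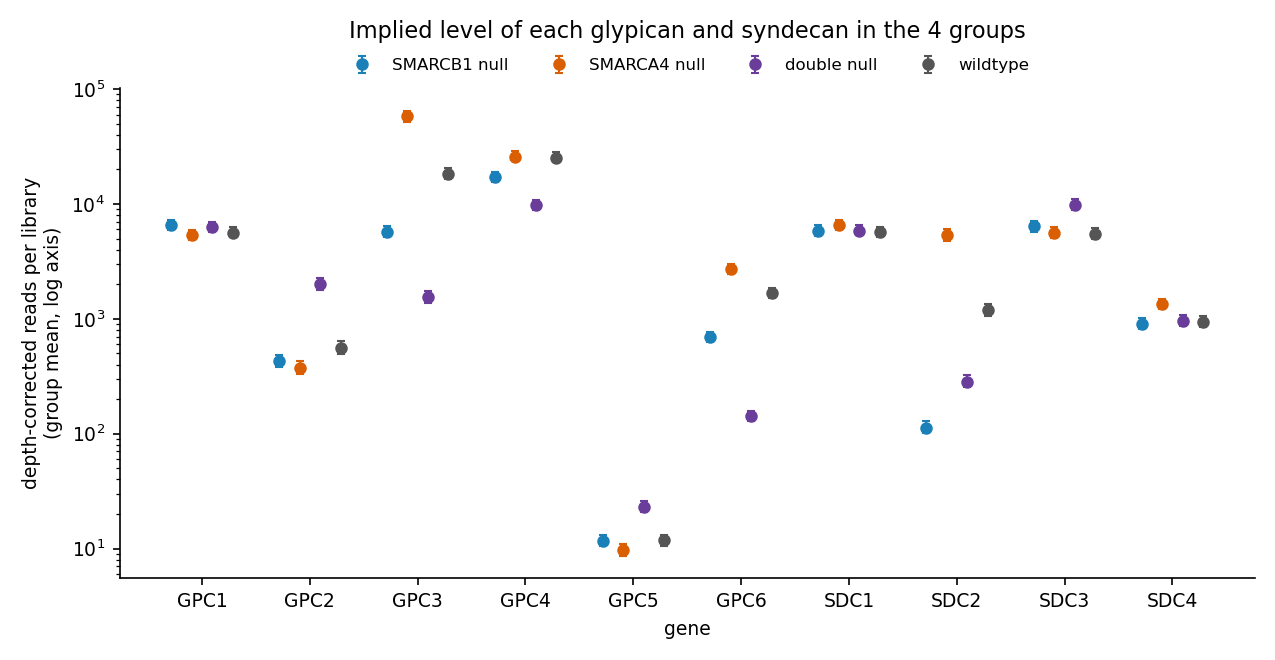
Implied level of each member (depth-corrected reads per library, group mean, log axis) in the SMARCB1 null, SMARCA4 null, double null and wildtype. Bars run from the level if all reads lay in the deeper library of each group to that if all lay in the shallower one; GPC3 covers 1535 to 57821 depth-corrected reads, while SDC1 stays between 5712 and 6565.

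**Figure D2:**
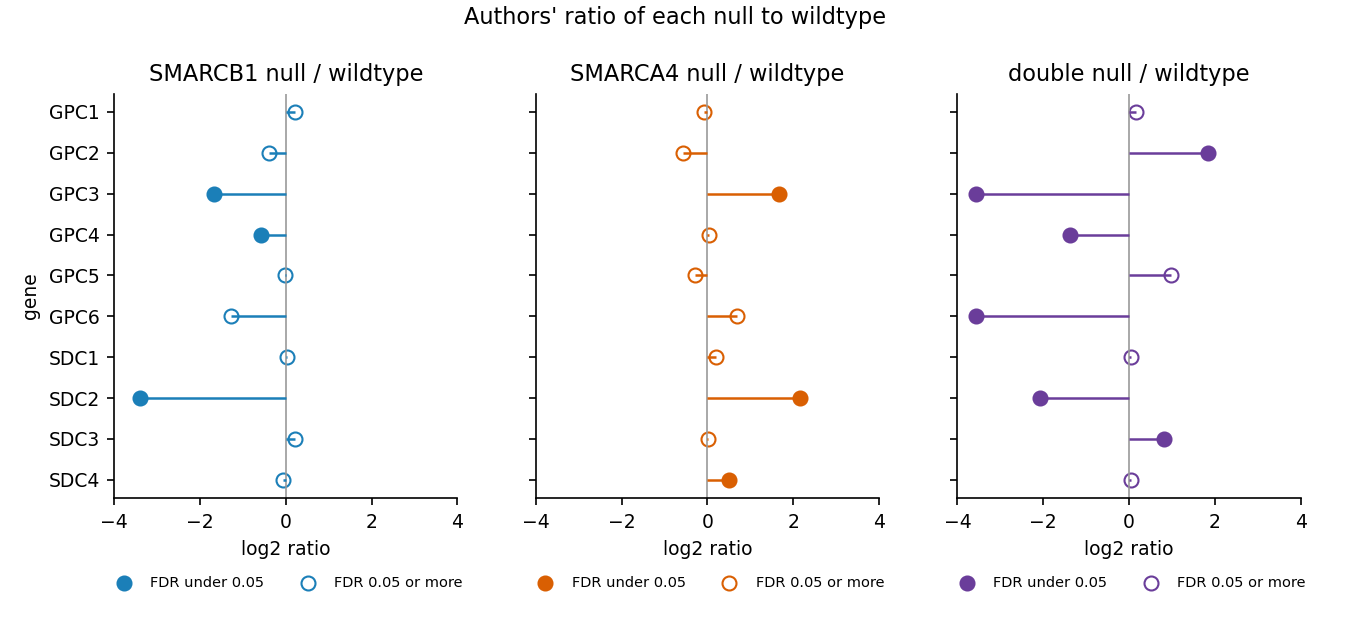
Log2 ratio of each null to wildtype for the 10 members according to the authors' deposited table, 1 panel for each null, with filled points at an FDR under 0.05 and open points otherwise. GPC3 and SDC2 lie left of 0 in the SMARCB1 and double nulls and right of 0 in the SMARCA4 null.

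GPC3, a glypican that restrains Hedgehog signalling, is mutated in an overgrowth syndrome and is abundant in fetal tissue and liver cancer. Its implied level was 5707 depth-corrected reads per library for the SMARCB1 null, 57821 for the SMARCA4 null and 1535 for the double null, against 18204 in wildtype. The SMARCA4 null stood highest, followed by wildtype, the SMARCB1 null and the double null. GPC3 fell 3.19-fold in the SMARCB1 null (ratio 0.314, FDR 1.48e-21) and 11.9-fold in the double null (ratio 0.0843, FDR 6.06e-32) according to the authors' deposited table. It rose 3.18-fold in the SMARCA4 null (FDR 5.98e-68) according to the authors' deposited table. Between the nulls, the implied level in the SMARCA4 null was 10.1 times that in the SMARCB1 null and 37.7 times that in the double null, differences that were not tested themselves.

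GPC4, a glypican known for Wnt and BMP signalling in early embryos and pluripotent cells, is the gene beside GPC3. It had 17112 depth-corrected reads per library for the SMARCB1 null, 25866 for the SMARCA4 null and 9819 for the double null, against 25391 in wildtype. It fell in the SMARCB1 null (ratio 0.674, FDR 4.68e-06) and in the double null (ratio 0.387, FDR 1.19e-23) according to the authors' deposited table. In the SMARCA4 null, where GPC3 rose, the ratio of GPC4 was 1.02 (FDR 0.972) according to the authors' deposited table. Of the genes flanking this pair on chromosome X, CCDC160, next to GPC3, rose in all nulls with ratios of 11.6, 11.5 and 19.9 across the SMARCB1, SMARCA4 and double nulls (FDR 0.000563, 0.000485 and 1.43e-05) according to the authors' deposited table. CCDC160 is low, at 26.6, 26.4 and 45.5 depth-corrected reads in these nulls and 2.28 in wildtype. TFDP3, on the other side of GPC4, had 76 reads in all and was not called according to the authors' deposited table.

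GPC6, a glypican needed for growth of long bones, had an implied level of 690 depth-corrected reads per library for the SMARCB1 null, 2709 for the SMARCA4 null and 143 for the double null, against 1678 in wildtype. The order of the 4 groups was that of GPC3. Only the fall in the double null passed the threshold, at 11.8-fold (ratio 0.0849, FDR 0.00222) according to the authors' deposited table. The ratio was 0.411 in the SMARCB1 null (FDR 0.0676) and 1.61 in the SMARCA4 null (FDR 0.224) according to the authors' deposited table. The fold of GPC6 in the double null was close to that of GPC3, while its FDR was far less small, and its reads per library are not known. GPC6-AS1, which overlaps GPC6, had 20 reads in all and was not called in any null according to the authors' deposited table. Libraries were made with a stranded kit, but whether strand was used in counting is not given in the sources used here.

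GPC5, which adjoins GPC6 and acts on Hedgehog and Wnt signalling, was the least abundant member, with 115 reads over all libraries. Its reads per library were 9 and 11 for the SMARCB1 null, 8 and 11 for the SMARCA4 null, 40 and 14 for the double null, and 12 and 10 in wildtype (deeper library first in each group). After correction for depth these became 10.1 and 12.8 for the SMARCB1 null, 6.83 and 12.1 for the SMARCA4 null, 30.6 and 14.6 for the double null, and 11.6 and 11.5 in wildtype. Both double-null libraries lay above both wildtype libraries, but the higher value came from 1 library. By edgeR's quasi-likelihood test on 3238 recovered genes, the log2 change was 0.97 in the double null (adjusted p = 0.226), -0.30 in the SMARCA4 null (adjusted p = 0.815) and -0.02 in the SMARCB1 null (adjusted p = 0.988). The contrasts between nulls were not past the threshold either, with log2 changes of 1.28 for the double null over the SMARCA4 null (adjusted p = 0.16) and 0.99 over the SMARCB1 null (adjusted p = 0.354) in the same edgeR fit. Without the deeper double-null library the log2 change was 0.33 against wildtype, and without the shallower one 1.40. Its FDR was 1, 0.849 and 0.345 across the SMARCB1, SMARCA4 and double nulls according to the authors' deposited table. MIR17HG, the gene on the other side of GPC5, fell in the SMARCA4 null (ratio 0.513, FDR 0.00296) and the double null (ratio 0.534, FDR 0.0036) according to the authors' deposited table.

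GPC2, a glypican of developing neurons and of neuroblastoma, rose in the double null. It had 427 depth-corrected reads per library for the SMARCB1 null, 373 for the SMARCA4 null and 1996 for the double null, against 558 in wildtype. The ratio was 3.58 in the double null (FDR 0.0162), 0.766 in the SMARCB1 null (FDR 0.868) and 0.668 in the SMARCA4 null (FDR 0.817) according to the authors' deposited table. Neuronal and neuroendocrine markers were counted beside it: 3 of 18 (NEFL, SYP and CHGB) were called higher and 0 lower in the double null, where 12% of all genes were called higher, so the count is near that share. The median log2 ratio over all 18 was 6.12, INSM1 (ratio 0.768) and SYT1 (ratio 0.57) being the ones below wildtype according to the authors' deposited table. The summed implied level of the 18 markers was 186248 depth-corrected reads per library in the double null against 13780 in wildtype. In the other nulls 0 of 18 were called according to the authors' deposited table, and the summed level was 5820 in the SMARCB1 null and 12133 in the SMARCA4 null. The list's median log2 ratio was 0.37 in the SMARCB1 null and -0.17 in the SMARCA4 null. SYT1 and TUBB3 held 5834 and 5216 depth-corrected reads of the wildtype sum, against 393 and 1743 in the SMARCB1 null. Of these markers only CHGA had its reads recovered, 6672 and 14 in the double-null libraries and 6 and 20 in wildtype, which puts 99.7% of its double-null reads, after depth correction, in the deeper library. How GPC2 was shared between those libraries is not known, and the part of these markers in its rise was not tested. NEFL, a neurofilament gene, had a ratio of 638 in the double null (FDR 0.00787), SYP, a synaptic vesicle gene, 7.75 (FDR 0.0037) and CHGB, a secretory granule gene, 49.2 (FDR 0.00244) according to the authors' deposited table.

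GPC1, a broadly expressed glypican and a co-receptor for FGF, had 6528 depth-corrected reads per library for the SMARCB1 null, 5347 for the SMARCA4 null and 6322 for the double null, against 5632 in wildtype. Its ratios of 1.16, 0.949 and 1.12 across the SMARCB1, SMARCA4 and double nulls (FDR 0.631, 0.949 and 0.663) were not called according to the authors' deposited table. Of its neighbours, OTOS, with 46 reads in all, was called higher in the SMARCB1 null (ratio 10.1, FDR 0.0287) and the SMARCA4 null (ratio 7.83, FDR 0.0448) according to the authors' deposited table, and ANKMY1 was not called in any null.

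SDC2, a syndecan of fibroblasts and developing mesenchyme, had the widest span of ratios among the syndecans. Its implied level was 113 depth-corrected reads per library for the SMARCB1 null, 5324 for the SMARCA4 null and 284 for the double null, against 1196 in wildtype. As for GPC3, the SMARCA4 null was highest and the other nulls lay below wildtype, but here the SMARCB1 null was the lowest. SDC2 fell 10.6-fold in the SMARCB1 null (ratio 0.0941, FDR 0.0158) and 4.21-fold in the double null (ratio 0.237, FDR 0.0275), and rose 4.45-fold in the SMARCA4 null (FDR 4.78e-08) according to the authors' deposited table. The falls of SDC2 in the SMARCB1 and double nulls were not called at an FDR of 0.01, whereas its rise was, and the rise of GPC2 in the double null was likewise not called at 0.01. The level in the SMARCA4 null was 47.3 times that in the SMARCB1 null and 18.8 times that in the double null, with no test of these differences. Of the 19541 genes in the authors' deposited table, 43 were called higher in the SMARCA4 null and lower in both other nulls, GPC3 and SDC2 among them. Its neighbours on chromosome 8, PTDSS1 and CPQ, were not called in any null according to the authors' deposited table.

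SDC3, the syndecan of the nervous system, had 6381 depth-corrected reads per library for the SMARCB1 null, 5602 for the SMARCA4 null and 9787 for the double null, against 5532 in wildtype. It rose in the double null (ratio 1.77, FDR 0.000151), and its ratios of 1.15 in the SMARCB1 null (FDR 0.656) and 1.01 in the SMARCA4 null (FDR 1) were not called according to the authors' deposited table. The part of the neuronal markers described with GPC2 in this rise was not tested.

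SDC4, the widely expressed syndecan of focal adhesions, had 905 depth-corrected reads per library for the SMARCB1 null, 1339 for the SMARCA4 null and 965 for the double null, against 943 in wildtype. It rose in the SMARCA4 null (ratio 1.42, FDR 0.00127), and had ratios of 0.959 in the SMARCB1 null (FDR 0.881) and 1.02 in the double null (FDR 0.928) according to the authors' deposited table. SDC1, the syndecan of epithelia and plasma cells, had 5847, 6565 and 5868 depth-corrected reads per library in the SMARCB1, SMARCA4 and double nulls, against 5712 in wildtype. None of its ratios, 1.02, 1.15 and 1.03 (FDR 0.983, 0.696 and 0.942), was called according to the authors' deposited table. Epithelial markers counted 0 higher and 2 lower of 10 in the SMARCB1 null, 2 higher in the SMARCA4 null and 1 higher and 1 lower in the double null according to the authors' deposited table, and summed levels of 1008, 3582 and 1429 depth-corrected reads in those nulls against 2797 in wildtype.

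To compare levels between members, the implied level was divided by the length of the longest protein-coding transcript in GENCODE 29. In the SMARCB1 null GPC4 led with 3450 depth-corrected reads per kilobase, followed by GPC3 (2223), SDC1 (1777) and GPC1 (1758). In the SMARCA4 null GPC3 alone held 65.2% of the summed level of the 10 genes (22516 per kilobase), with GPC4 next at 15.1%. In the double null GPC4 (1980 per kilobase), SDC1 (1783), GPC1 (1703) and SDC3 (1531) stood highest, each overlapping the next within the bounds on implied levels, then GPC2 at 788 and GPC3 at 598. In wildtype GPC3 (7089) and GPC4 (5119) held 40.5% and 29.3% of the sum, and SDC1 (1736) and GPC1 (1517) came next. SDC1 and GPC1 also overlapped within these bounds in the SMARCB1 null and in wildtype, as did GPC1 and SDC2, and SDC4 and GPC6, in the SMARCA4 null. SDC4, SDC2, GPC6 and GPC2 in wildtype lay between 361 and 220 per kilobase, each overlapping the next. GPC5 was last in every group. With the shorter SDC3 transcript of 1580 bases, SDC3 would stand highest in the SMARCB1 null (4038 per kilobase) and the double null (6194). It would be rank 3 in the SMARCA4 null (3546) and wildtype (3501), so its place is set by the transcript used. Other members also have shorter transcripts, such as SDC2 (1583 against 3759 bases) and GPC1 (1835 against 3713), for which levels were not recomputed. The bounds and shares given here do not cover the choice of transcript.

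The glypican sum per kilobase was 0.543 of wildtype in the SMARCB1 null, 2.09 times wildtype in the SMARCA4 null and 0.359 of it in the double null, while the syndecan sum stood at 0.961, 1.46 and 1.15 times wildtype. The share of GPC3 in the sum over all members was 20.5% in the SMARCB1 null and 6.75% in the double null. These sums follow GPC3 and GPC4 on the glypican side and carry no test. With the shorter SDC3 transcript the syndecan sum was 1.05, 1.26 and 1.42 times wildtype, so its direction in the SMARCB1 null depends on that choice.

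**Figure D3:**
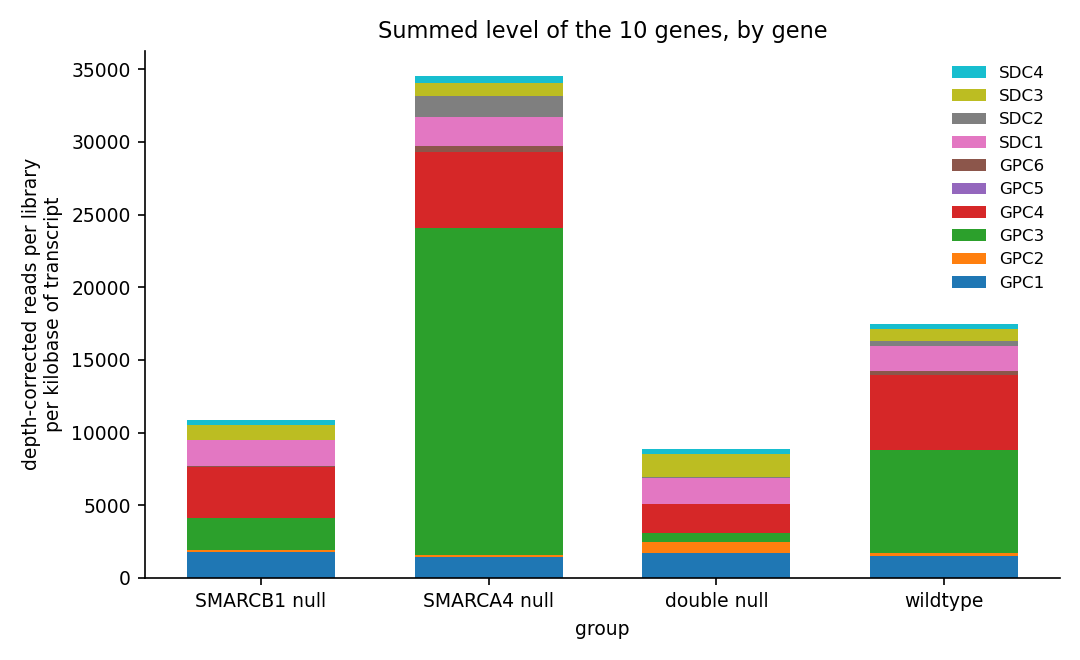
Stacked implied levels of the 10 members per kilobase of transcript (depth-corrected reads per library per kilobase) in the 3 nulls and wildtype, 1 colour for each gene. The SMARCA4-null bar reaches 34541, of which GPC3 makes 22516, against 17489 in wildtype; the SMARCB1-null and double-null bars reach 10861 and 8857.

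Each double-null ratio was set beside the product of the ratios of both single nulls. The product is what independent multiplicative changes would give, and since all 3 ratios share wildtype no test was made. For GPC3 the product was 0.996 and the double-null ratio 0.0843, 11.8-fold lower according to the authors' deposited table. GPC6 had a product of 0.664 and a double-null ratio of 0.0849, GPC4 of 0.687 and 0.387, and SDC2 of 0.419 and 0.237 according to the authors' deposited table. For these genes the double null was below the product. GPC2 lay above it, with a product of 0.512 and a double-null ratio of 3.58, as did GPC5, which was not called, with 0.812 and 1.95, and SDC3 with 1.17 and 1.77 according to the authors' deposited table. SDC4 (1.36 and 1.02) and SDC1 (1.18 and 1.03) also lay below the product, and GPC1 (1.10 and 1.12) just above it. SDC4, SDC1 and GPC1 were called in neither direction in the double null according to the authors' deposited table. The double null was a single line sampled at later passages than either single null, and neither line nor passage can be told apart from the joint loss.

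**Figure D4:**
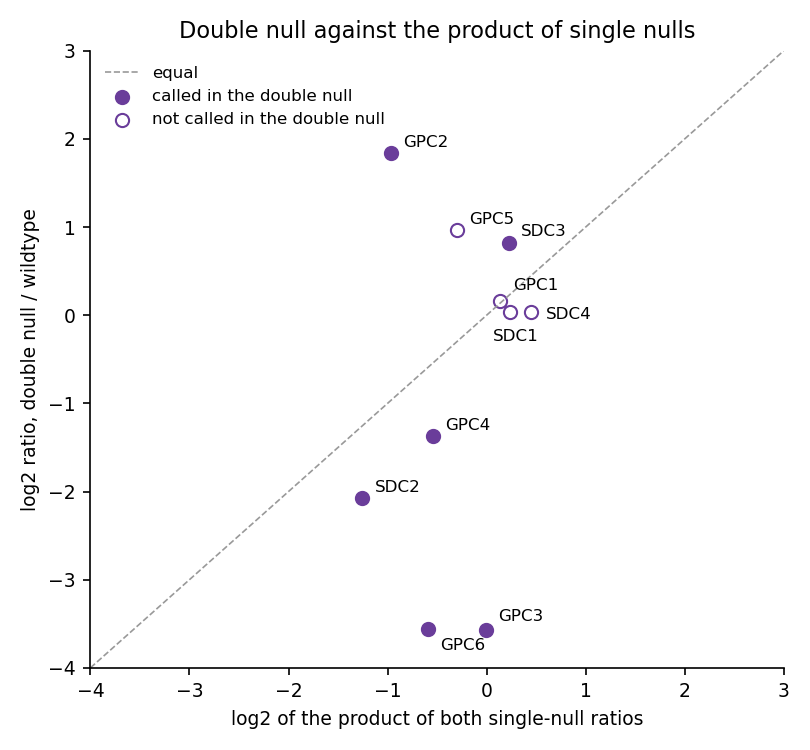
Log2 ratio of the double null to wildtype (vertical) against the log2 product of both single-null ratios (horizontal) for the 10 members according to the authors' deposited table, with the dashed line marking equality and filled points called in the double null. GPC3, GPC6, GPC4, SDC2, SDC4 and SDC1 lie below the line and GPC2, GPC5, SDC3 and, slightly, GPC1 above it.

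Heparan sulphate chains on these proteins are built in the Golgi on a linker. Of 11 genes for linker initiation and chain polymerisation, 2 were called higher and 1 lower in the SMARCB1 null, 2 higher and 1 lower in the SMARCA4 null, and 4 higher and 0 lower in the double null according to the authors' deposited table, with median log2 ratios of 0.27, 0.10 and 0.36. Over all genes, 7.86%, 7.39% and 12% were called higher and 5.76%, 4.49% and 5.97% lower, and the counts of this and the other lists are to be read against these shares. The linker kinase FAM20B rose in all nulls (ratios 1.58, 1.41 and 1.28 across the SMARCB1, SMARCA4 and double nulls, FDR 4.22e-35, 1.81e-19 and 2.46e-10) according to the authors' deposited table. EXTL2, a glycosyltransferase of the linker region, also rose in all of them (ratios 1.41, 1.74 and 1.33; FDR 8.06e-05, 1.62e-12 and 0.00115) according to the authors' deposited table. The xylosyltransferase XYLT1, which starts the linker, rose in the double null (FDR 0.000333 according to the authors' deposited table). The implied level of XYLT1 there was 450 depth-corrected reads per library, against 2.28 in wildtype. The polymerase subunit EXT2 had a ratio of 1.28 in the double null (FDR 0.0237) according to the authors' deposited table. EXT1, also a polymerase subunit, was the gene called lower in the SMARCB1 null (ratio 0.875, FDR 0.000684) and the SMARCA4 null (ratio 0.894, FDR 0.00762). With a ratio of 0.922 in the double null EXT1 was not called (FDR 0.0619) according to the authors' deposited table.

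Of 16 genes that modify the chains, 3 were called higher for the SMARCB1 null, 4 for the SMARCA4 null and 4 for the double null, and 0 lower in any null according to the authors' deposited table. HS3ST3B1, a 3-O-sulphotransferase, rose in all nulls (346, 253 and 417 depth-corrected reads per library in the SMARCB1, SMARCA4 and double nulls, against 38.3 in wildtype), with FDR of 2.09e-28, 2.24e-20 and 1.4e-33 according to the authors' deposited table. The deacetylase-sulphotransferase NDST4, of the family that adds the first N-sulphates, rose in the double null to 801 depth-corrected reads, against 2.73 in wildtype (FDR 0.035 according to the authors' deposited table). The 6-O-sulphotransferase HS6ST2 rose in the SMARCA4 null (ratio 1.54, FDR 0.0298) according to the authors' deposited table. The median log2 ratio of the list was 0.14, 0.09 and 1.34 across the SMARCB1, SMARCA4 and double nulls.

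Of 16 measured genes that edit or release heparan sulphate proteoglycans outside the cell, 2 were called higher and 0 lower in each null according to the authors' deposited table. That count is near the 12% of all genes called higher in the double null. HPSE, the heparanase that cuts the chains, had 11259 depth-corrected reads per library in the SMARCA4 null, against 2335 in wildtype, and rose 4.82-fold (FDR 8.31e-18) according to the authors' deposited table. HPSE was not called in the SMARCB1 null (ratio 0.761, FDR 0.59) or the double null (ratio 0.501, FDR 0.0561) according to the authors' deposited table. GPLD1, a phospholipase D that cuts GPI anchors, rose in the SMARCB1 null (ratio 2.28, FDR 0.00379) and in the double null (ratio 2.79, FDR 6.47e-05) according to the authors' deposited table. ADAM17, a protease that sheds syndecan ectodomains, had ratios of 1.33, 1.11 and 1.08 across the SMARCB1, SMARCA4 and double nulls, all called higher according to the authors' deposited table. The median log2 ratio of the list was 0.29, 0.31 and 0.25 in the same order.

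Matrix and part-time heparan sulphate proteoglycans were mostly lower where they were called: of 10, the SMARCB1 null had 0 higher and 4 lower, the SMARCA4 null 0 higher and 2 lower, and the double null 1 higher and 4 lower according to the authors' deposited table. The basement membrane proteoglycan HSPG2 (perlecan) fell in all nulls, with ratios of 0.444, 0.559 and 0.432 (FDR 3.35e-07, 0.000222 and 1.2e-07), and COL18A1, a collagen of basement membranes, with ratios of 0.425, 0.654 and 0.425 (FDR 6.18e-06, 0.0289 and 4.52e-06) according to the authors' deposited table. NRP1, a co-receptor for VEGF and semaphorins, fell in the double null (ratio 0.0724, FDR 8.81e-12) and the SMARCB1 null (ratio 0.559, FDR 0.00234) and had a ratio of 1.21 in the SMARCA4 null (FDR 0.43) according to the authors' deposited table. The list's median log2 ratio was -0.91, 0.08 and 0.16 across the SMARCB1, SMARCA4 and double nulls. The testican SPOCK1 rose in the double null to 3102 depth-corrected reads, against 119 in wildtype (FDR 0.00181 according to the authors' deposited table).

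Among 13 intracellular partners of the syndecans, 1 was called higher and 1 lower in the SMARCB1 null, 3 higher and 0 lower in the SMARCA4 null, and 2 higher and 1 lower in the double null according to the authors' deposited table. EZR (ezrin), which links membrane proteins to actin, rose 1.97-fold in the SMARCA4 null (FDR 1.33e-17), and SDCBP (syntenin), the PDZ protein that binds syndecan tails, rose 1.85-fold in the SMARCB1 null (FDR 1.12e-07) according to the authors' deposited table. SYNPO, an actin-associated protein, rose in the SMARCA4 null (ratio 3.59, FDR 0.00707) and the double null (ratio 3.57, FDR 0.00499) according to the authors' deposited table. PRKCA, the kinase bound by the SDC4 tail, rose in the same nulls (ratios 1.82 and 1.69, FDR 0.0143 and 0.0334) according to the authors' deposited table. The median of this list was -0.04, 0.05 and 0.08 on the log2 scale, near 0 in each null.

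**Figure D5:**
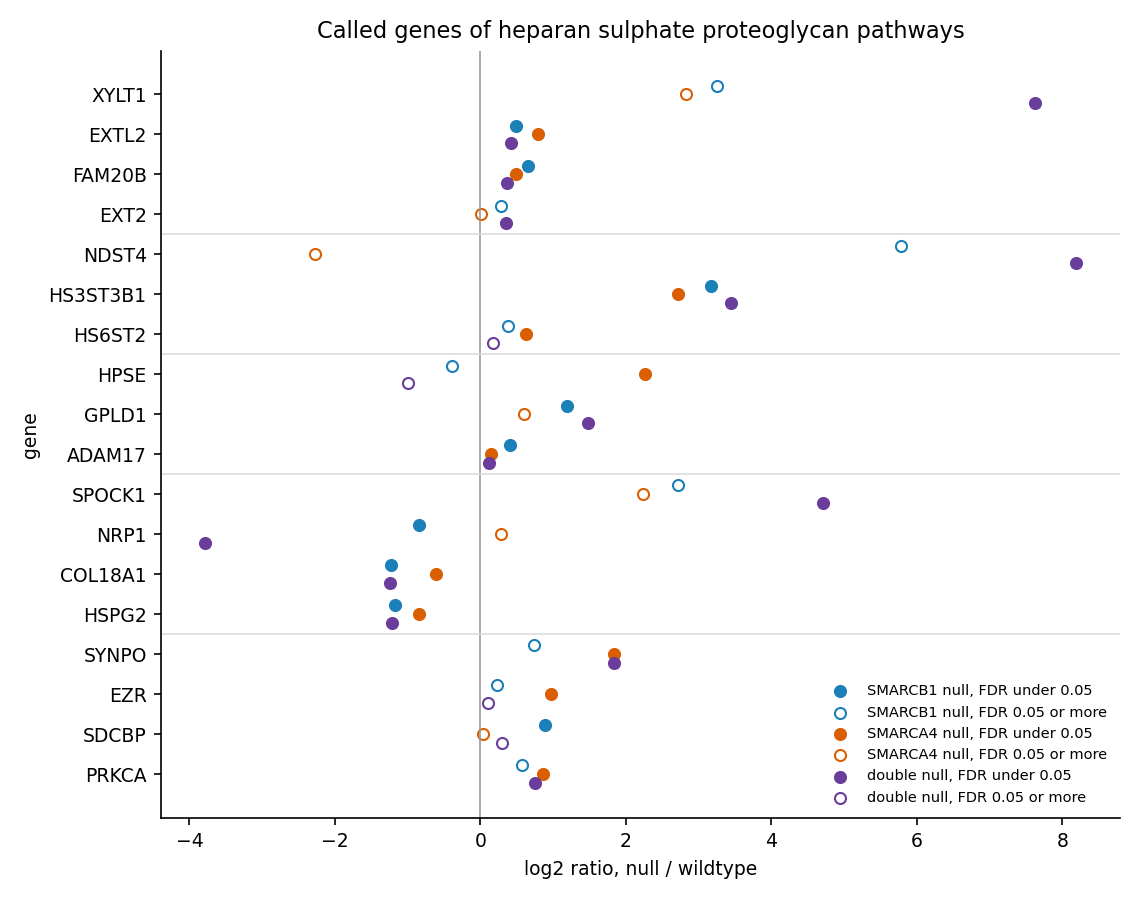
Log2 ratio of each null to wildtype according to the authors' deposited table for the named genes of 5 lists, from top to bottom chain initiation, chain modification, editing and release, matrix proteoglycans and syndecan partners, separated by grey lines. Filled points have an FDR under 0.05, and EXT1 is not shown. HSPG2 and COL18A1 lie left of 0 in all nulls, FAM20B, EXTL2 and HS3ST3B1 right of 0.

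Markers of other cell types were counted in the same samples, since HAP1 has no agreed list of defining markers. Skeletal muscle markers had a median log2 ratio of 6.37 in the SMARCB1 null with 0 of 13 called according to the authors' deposited table, and the recovered TNNC2, MYOG and MYOD1 had 97.5% to 100% of their SMARCB1-null reads, after depth correction, in the deeper library. MYOG had no reads in either wildtype library. The summed level of this list was 17955 depth-corrected reads per library for the SMARCB1 null, 1258 for the SMARCA4 null and 1420 for the double null, against 647 in wildtype. TNNT1 alone held 1099 of the SMARCA4-null sum, against 238 in wildtype. It was the 1 gene of the list called there (ratio 4.62, FDR 0.0383) according to the authors' deposited table. The list's median log2 ratio was -2.48 for that null, so its higher sum did not reflect most of the list. For the double null the median was 1.13. Mesenchymal markers, with which SDC2 is often found, were called 2 higher and 1 lower of 10 in the SMARCB1 null, 2 higher in the SMARCA4 null and 3 higher in the double null according to the authors' deposited table. The median log2 ratio of the mesenchymal list was 1.18, 0.38 and 1.14 across the SMARCB1, SMARCA4 and double nulls. In the SMARCB1 null FN1 was the marker called lower (ratio 0.192, FDR 2.4e-08) according to the authors' deposited table. CDH2 and TWIST1 were those called higher there. Epithelial markers, given with SDC1, had summed levels below wildtype in the SMARCB1 and double nulls and above it in the SMARCA4 null. GPC3 and SDC2 did likewise, but a few genes made up most of the sum. KRT18 held 2103 of the 2797 depth-corrected reads in wildtype and 1937 in the SMARCA4 null. Its ratio there was 0.921 (FDR 0.952) according to the authors' deposited table. ESRP1 (642 against 280) and CLDN3 (584 against 295) rose there uncalled, while the called CDH1 and CLDN7 reached 2.98 and 180. For the double null 1 marker was called higher (CDH1) and 1 lower (KRT8). The list's median log2 ratio was -0.96, 1.17 and -0.12 across the SMARCB1, SMARCA4 and double nulls. The part of these lists in the changes of GPC3, GPC4 and SDC2 was not tested. Blood cell markers had 0 of 7 called in any null according to the authors' deposited table, but 5 of the 7 had under 100 total reads. Their median log2 ratio was 2.15, 1.27 and 7.06 across the SMARCB1, SMARCA4 and double nulls, so the lack of calls does not show unchanged levels. Of 8 liver and yolk sac markers 5 were listed there, AFP, TTR and APOB being absent, and 2 of the 5 had under 100 total reads. SERPINA1 was the 1 of these 5 called higher in each null.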

How the data were processed

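RNA-seq of 8 HAP1 samples in 4 groups of 2 was analysed. STAR, the hg19 build and Partek 4.0 are named, per the submitters' processing notes. Which test and normalization the authors ran is not given in the sources used here. Per the file headers, the authors' deposited tables hold each gene's total reads (an estimated count, whole within 0.001 for 47.8% of 19541 symbols), the authors' p-value, adjusted p-value (FDR) and ratio for each null against wildtype, and a signed fold, which is a score in sign. The deposited FDR equals the Benjamini-Hochberg adjustment of the p-value for all symbols. No column holds values of single samples.

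Members and lists were chosen with earlier results of these data known. Genes were called at an FDR under 0.05 over the whole table. Genes named beside the members are, for each list, at most 4 called in at least 1 null with the largest log2 ratio among calls and at least 500 total reads, plus the targets and RefSeq neighbours. EXT1 was named besides, as the gene of its list that was called lower. Deposited ratios behaved as quotients of depth-corrected group means, so what 1 read adds in each library came from single-read genes. Whole reads per library were solved for 5231 of 7604 genes tried with totals up to 30000, and 0 of 1500 decoys solved. Of the members, GPC5 was solved. Libraries are known as deeper or shallower, not by passage or guide. Other genes have implied group levels, whose median error on recovered genes was 0.457% to 0.532% (95th percentile 4.3% to 4.98%, and 14.4% in the double null). Recovered counts were tested with edgeR 4.0.16 in R 4.3.3 (quasi-likelihood, all 8 libraries, deposited scaling). These genes are mostly low in reads. Recovery was checked on reads simulated from genes already recovered, and the test on counts simulated with the same spread for all genes. The test was not checked at a spread between libraries as wide as that of CHGA. Alternatives were other thresholds, centring, equal depth, DESeq2 1.42.0, TMM, no filter and each library left out. Promoter sequences are from RefSeq, GRCh38.p14, and were not combined with hg19 coordinates.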

Additional observations from a re-analysis of the deposited data

How the results depend on the processing

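At FDR thresholds of 0.01 and 0.1, with a 2-fold minimum added, and with adjustment over genes with at least 50 total reads, the count of called members stayed within 1.5 times that reported in each null. Centring on the median of genes with at least 1000 total reads (shifts of 0.05, 0.03 and 0.08 on the log2 scale in the SMARCB1, SMARCA4 and double nulls) turned 4 of 30 signs, none of them a ratio that was called in that null: SDC1 became -0.0154 in the SMARCB1 null and -0.0405 in the double null, SDC3 -0.0081 in the SMARCA4 null and SDC4 -0.0459 in the double null. Equal library depth moved implied levels by -1.32% to 5.98%. The shorter SDC3 transcript, chosen as an alternative after seeing the data, raised the level of SDC3 per kilobase to 4038, 3546 and 6194 across the SMARCB1, SMARCA4 and double nulls, against 3501 in wildtype. The authors' shorter deposited table lists GPC3 alone of the members, with the same ratios within rounding and FDR of 3.97e-09, 3.39e-28 and 1.77e-13. For GPC5, leaving out each library gave log2 changes of -0.19 to 0.14 in the SMARCB1 null, -0.75 to 0.0686 in the SMARCA4 null and 0.33 to 1.40 in the double null. Over all alternatives, TMM, DESeq2 and no filter included, its adjusted p lay between 0.0806 and 0.785 in the double null. No paired analysis was possible because the recovered libraries could not be tied to their replicate letters. Where libraries are not recovered, no member could be tested without a library.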
